A study of Mus musculus with 12 samples.

Results

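The genes described here are 10 growth factor and receptor genes of liver repair: the receptor genes Egfr, Erbb2, Erbb3 and Met, the EGF receptor ligand genes Areg, Ereg, Hbegf, Tgfa and Btc, and the MET ligand gene Hgf. They were taken by symbol from a raw count table of 25540 genes, a choice made with earlier results of these data known. All 10 were in the table and all 10 passed the filter on low counts, which left 15720 genes for testing. The livers came from 12 BALB/c samples in 4 groups of 3, named siSTAT3 iExos, siCntrl iExos, mASO STAT3 iExos and mASO Scrbl iExos. All 4 groups received an injection of iExos, an exosome preparation, so no group was free of exosomes. The loads were directed at STAT3 in siSTAT3 and mASO STAT3, while siCntrl and mASO Scrbl carried the control loads. The series title places the work in liver fibrosis. The inducer of fibrosis, the dose, the time, the age and sex of the mice, and whether each sample is a separate mouse were not given in the sources used here. The p-values therefore measure the spread between these samples.

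EGF receptor ligands are made as membrane-bound precursors, and ADAM proteases cut them free to act on the same or on neighbouring cells. Ligand-bound EGFR pairs with itself or with ERBB2 and ERBB3, and the activated pairs signal through RAS and ERK. Hepatocytes express EGFR, ERBB3 and MET, whereas HGF comes mainly from stellate and other mesenchymal liver cells, is stored as an inactive precursor and binds only MET. Both systems drive hepatocyte proliferation after liver injury, and STAT3 is a transcription factor that acts downstream of the interleukin-6 family and of receptor tyrosine kinases.

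Depth was 39844158 to 57926887 counts per library in siSTAT3, 55406038 to 67791159 in siCntrl, 50024153 to 61804382 in mASO STAT3 and 64619765 to 66498894 in mASO Scrbl. Levels are CPM, counts relative to the library total, with totals scaled by TMM, a method that assumes most genes do not differ between libraries. Its factors were 0.804 to 0.901 in the libraries labelled STAT3 and 1.11 to 1.27 in the controls. The libraries carried the liver label in their markers: 8 hepatocyte genes summed to 110453 CPM or more in each library labelled STAT3 and to 50180 CPM or more in each control library. The targeted gene did not separate the labels. Stat3 was at 91.5, 116 and 122 CPM in siSTAT3 livers and 106, 121 and 111 CPM in siCntrl livers (libraries 1, 2 and 3), a log2 fold change of -0.033 ± 0.14 (SE, edgeR quasi-likelihood test, adjusted p = 0.868). In mASO STAT3 livers it was at 105, 88.2 and 115 CPM, against 106, 89.96 and 101 CPM in mASO Scrbl livers, a log2 fold change of 0.052 ± 0.14 (adjusted p = 0.792). With plain library totals in place of TMM, Stat3 was lower by test in both contrasts, at -0.54 and -0.53. That scaling also moved the median of all genes to -0.53 in the siRNA contrast and -0.63 in the mASO contrast, so Stat3 then lay close to the median of all genes. "siRNA contrast" below means siSTAT3 compared with siCntrl, and "mASO contrast" means mASO STAT3 compared with mASO Scrbl.

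All 6 ligand genes fell in both contrasts, and 1 receptor gene, Met, rose in the siRNA contrast. The test was edgeR's quasi-likelihood F test over all 12 libraries, with Benjamini-Hochberg adjusted p under 0.05 over all 15720 genes. In the siRNA contrast 7 of the 10 genes passed, where 45.7% of all tested genes passed (22.4% higher and 23.4% lower). In the mASO contrast 6 of the 10 passed, all lower, where 43.8% of all tested genes passed (21.3% higher and 22.5% lower). Areg and Ereg met the filter on low counts only in control libraries, with 5 counts or fewer in every library labelled STAT3. Both could therefore pass in these contrasts only as lower genes, and their calls are no independent support. For higher genes in the mASO contrast the count was 0, and both DESeq2 and limma voom gave 0 too, as did an unadjusted edgeR p under 0.05. The median log2 fold change of the 10 genes was -1.55 in the siRNA contrast and -1.46 in the mASO contrast. Setting Areg at its bound in the mASO contrast, where it had no counts, could not move that median. Areg stays among the lowest of the 10 values either way. Over all tested genes the median was -0.037 and -0.054. With library totals 0 members were higher and 7 lower in the siRNA contrast, Erbb2 being the added one, and 0 and 6 in the mASO contrast. The same scaling gave 1655 higher and 7266 lower genes overall in the siRNA contrast and 1525 and 7939 in the mASO contrast, against 3515 and 3675, and 3344 and 3542, with TMM.

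**Figure D1:**
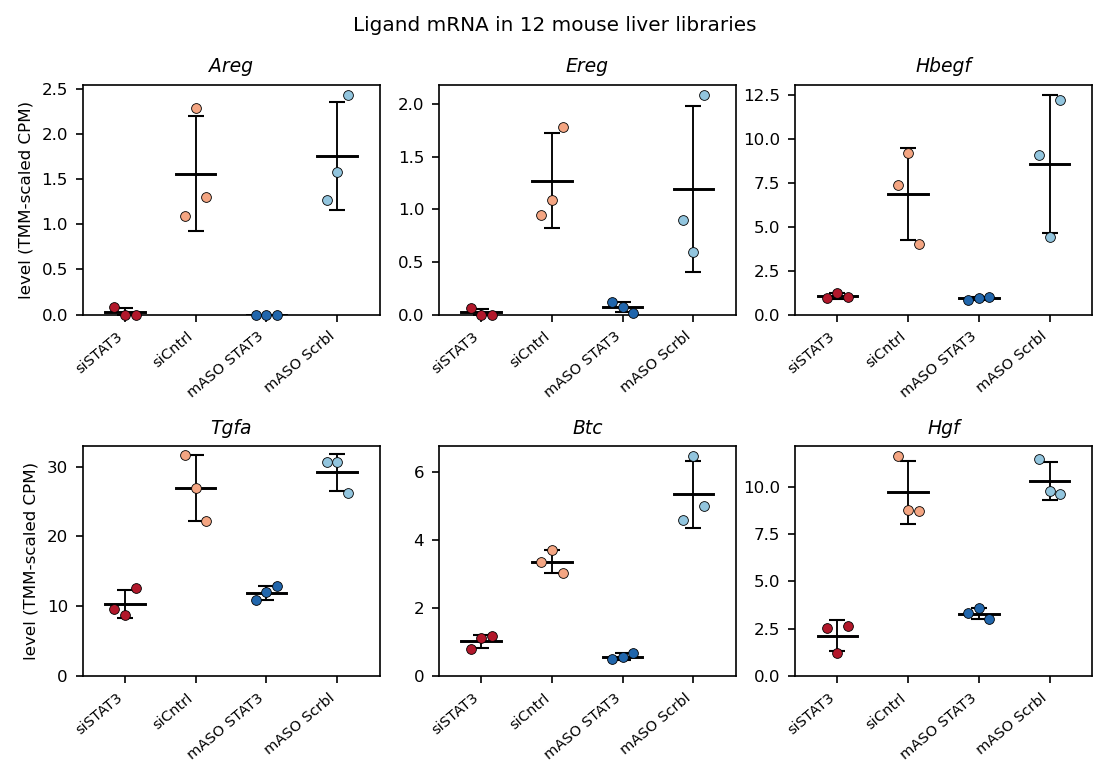
Level of 6 ligand genes (vertical axis, TMM-scaled CPM from 0, a scale per panel) in the 12 liver libraries, in the order siSTAT3, siCntrl, mASO STAT3 and mASO Scrbl. Points are libraries, horizontal lines the group mean of 3 and bars 1 SD, with lower ends stopped at 0. In every panel the points of each STAT3-labelled group lie below those of its control.

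Amphiregulin (Areg), a low-affinity EGFR ligand induced in injured liver, was nearly absent from the livers given STAT3 loads. It had 0.0822, 0 and 0 CPM in siSTAT3 livers, against 1.09, 2.28 and 1.31 CPM in siCntrl livers. In mASO STAT3 livers Areg was at 0, 0 and 0 CPM, against 1.27, 1.57 and 2.43 CPM in mASO Scrbl livers. No STAT3-labelled library reached any control library, and 1 of those 6 libraries, siSTAT3 1, held all of their reads. In counts, the siSTAT3 group held 4 and the siCntrl group 332, while mASO STAT3 held 0 and mASO Scrbl 431. The log2 fold change of Areg in the siRNA contrast was -5.52 ± 0.79 (95% interval -7.25 to -3.78, adjusted p = 0.000169). The ratio of the pooled levels was 46.5 in favour of the control group, with an exact 95% counting interval of 18.002 to 172 that covers counting error only. Without siSTAT3 1 no count remained in that group. Areg was then at least 36.9-fold lower at a floor of 3 counts over the group, and the exact counting interval began at 29.8. In the mASO contrast Areg was at least 83.6-fold lower when the group with no count is set at the floor of 3 counts over the group (adjusted p = 3.73e-05). That bound lay between 52.8 and 95.1 when 1 library was left out, with the lowest values, 52.8 and 54.5, without mASO STAT3 2 and without mASO STAT3 3. With all libraries the exact 95% counting interval of the mASO ratio began lower than the bound, at 67.7.

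Epiregulin (Ereg), a broad ligand of EGFR and ERBB4, behaved in the same direction. Its level was 0.0616, 0 and 0 CPM in siSTAT3 livers and 0.946, 1.09 and 1.78 CPM in siCntrl livers. The mASO STAT3 livers had 0.123, 0.07605 and 0.0201 CPM, against 0.898, 0.593 and 2.08 CPM in mASO Scrbl livers. The groups did not overlap in either contrast, although the highest control library, mASO Scrbl 3, was above 3 times the level of mASO Scrbl 2. Counts per group were 3 in siSTAT3, 271 in siCntrl, 10 in mASO STAT3 and 291 in mASO Scrbl. For the siRNA contrast the pooled ratio was 50.6 in favour of the control group (counting interval 17.1 to 247, adjusted p = 0.000199). All 3 reads were in siSTAT3 1. Without it Ereg was at least 30.1-fold lower at the floor of 3 counts, and the exact counting interval began at 24.3. For the mASO contrast the log2 fold change of Ereg was -4.02 ± 0.76 (95% interval -5.65 to -2.40, adjusted p = 0.000758). Its pooled ratio was 16.9 in favour of the control group (counting interval 9.07 to 35.7), 10.7 without mASO Scrbl 3 and at most 24.2, without mASO STAT3 1.

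Areg, Ereg and Btc lie on mouse chromosome 5 in the order Epgn, Ereg, Areg, Btc. No other protein-coding gene lies between them in the RefSeq table, and non-coding genes were not looked at. Epgn (epigen), the 4th ligand gene of that run, was too low to test, with 0 counts in siSTAT3, 1 in siCntrl, 1 in mASO STAT3 and 2 in mASO Scrbl.

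Hbegf encodes heparin-binding EGF-like growth factor, a ligand of EGFR and ERBB4. It measured 0.966, 1.26 and 0.983 CPM in siSTAT3 livers, against 7.37, 9.23 and 4.05 CPM in siCntrl livers. It measured 0.812, 0.9696 and 1.01 CPM in mASO STAT3 livers, against 9.09, 4.41 and 12.2 CPM in mASO Scrbl livers. All 6 STAT3-labelled libraries were below 1.3 CPM and all 6 controls above 4 CPM, and the controls spread more widely among themselves. Hbegf gave -2.68 ± 0.38 on the log2 scale in the siRNA contrast (95% interval -3.50 to -1.87, adjusted p = 7.93e-05) and -3.20 ± 0.39 in the mASO contrast (-4.03 to -2.37, adjusted p = 2.07e-05).

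Transforming growth factor alpha (Tgfa), a ligand that hepatocytes make for their own EGFR, had the highest mean level per length of the 6 ligand genes in every group. Its level was 9.59, 8.82 and 12.6 CPM in siSTAT3 livers and 31.7, 26.9 and 22.2 CPM in siCntrl livers. The mASO STAT3 livers had 10.95, 11.98 and 12.96 CPM and the mASO Scrbl livers 30.7, 30.7 and 26.2 CPM. The STAT3-labelled libraries formed 1 tight band below all controls. Tgfa gave -1.38 ± 0.17 on the log2 scale in the siRNA contrast (95% interval -1.75 to -1.02, adjusted p = 2.31e-05) and -1.29 ± 0.17 in the mASO contrast (-1.65 to -0.92, adjusted p = 3.98e-05).

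Betacellulin (Btc) binds EGFR and ERBB4. Its level was 0.801, 1.11 and 1.17 CPM in siSTAT3 livers, against 3.35, 3.705 and 3.03 CPM in siCntrl livers. The values were 0.492, 0.551 and 0.684 CPM in mASO STAT3 livers and 4.59, 6.46 and 4.99 CPM in mASO Scrbl livers. The 4 groups of Btc did not overlap with each other at all: mASO Scrbl was highest, then siCntrl, then siSTAT3, then mASO STAT3. The log2 fold change of Btc was -1.72 ± 0.26 in the siRNA contrast (95% interval -2.28 to -1.16, adjusted p = 0.000134) and -3.21 ± 0.27 in the mASO contrast (-3.80 to -2.62, adjusted p = 1.09e-06).

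Hgf, the only known ligand of MET, had 2.53, 1.21 and 2.67 CPM in siSTAT3 livers, against 11.6, 8.77 and 8.71 CPM in siCntrl livers. In mASO STAT3 livers Hgf had 3.32, 3.57 and 2.999 CPM, against 11.5, 9.79 and 9.63 CPM in mASO Scrbl livers. Every control library was above 8 CPM and every STAT3-labelled library below 4 CPM. The fold change on the log2 scale was -2.18 ± 0.26 in the siRNA contrast (95% interval -2.74 to -1.62, adjusted p = 1.85e-05) and -1.64 ± 0.25 in the mASO contrast (-2.18 to -1.10, adjusted p = 0.000152).

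All 6 ligand genes had non-overlapping groups in both contrasts, where 27.5% of all tested genes lay wholly below siCntrl in the siRNA contrast and 29.6% wholly below mASO Scrbl in the mASO contrast. Their direction and call held in all 168 values from the alternative fits, 14 per gene and contrast, with the largest adjusted p at 0.00533. These fits share most of their libraries. Areg and Ereg met the filter on low counts through control libraries alone, so neither their lack of overlap nor their direction adds support.

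**Figure D2:**
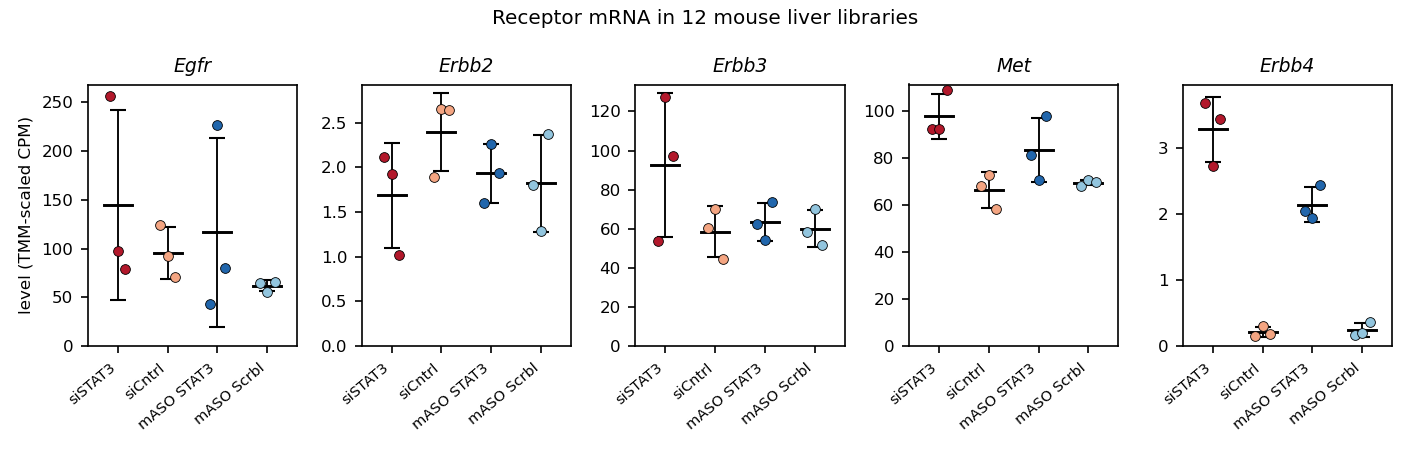
Level of the receptor genes Egfr, Erbb2, Erbb3 and Met, with the related Erbb4 (vertical axis, TMM-scaled CPM from 0, a scale per panel), in the 12 liver libraries. Points are libraries, horizontal lines the group mean of 3 and bars 1 SD, with lower ends stopped at 0. Met and Erbb4 points of STAT3-labelled groups lie above their controls, and in Egfr 1 library stands high in each STAT3-labelled group, siSTAT3 1 and mASO STAT3 2.

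No receptor gene was called lower in either contrast. Met, the HGF receptor of hepatocytes, was at 92.1, 92.2 and 109 CPM in siSTAT3 livers and 68.2, 72.8 and 58.1 CPM in siCntrl livers. It was at 81.3, 70.8 and 97.7 CPM in mASO STAT3 livers and 68.2, 70.4 and 69.8 CPM in mASO Scrbl livers. Both STAT3-labelled groups lay wholly above their controls, as did 25.5% of all tested genes in the siRNA contrast and 27.2% in the mASO contrast. Met rose in the siRNA contrast (log2 fold change 0.56 ± 0.14, 95% interval 0.26 to 0.85, adjusted p = 0.00468). In the mASO contrast Met did not pass (log2 fold change 0.26 ± 0.14, -0.034 to 0.56, adjusted p = 0.1396). With library totals its log2 fold change was 0.055 (adjusted p = 0.752) and -0.33 (adjusted p = 0.0555), so both the call in the siRNA contrast and the direction in the mASO contrast depend on the scaling. Both values stood above the median of all genes under that scaling.

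Egfr, the receptor of all 5 EGF-family ligands here, was at 257, 98.1 and 79.6 CPM in siSTAT3 livers and 124, 92.05 and 70.6 CPM in siCntrl livers. It was at 43.2, 227 and 80.7 CPM in mASO STAT3 livers and 64.97, 55.5 and 65.3 CPM in mASO Scrbl livers. The groups overlapped in both contrasts, and siSTAT3 1 and mASO STAT3 2 were each above 2 times the level of the other libraries of their group. Neither contrast passed, with a log2 fold change of 0.60 ± 0.56 (-0.65 to 1.85, adjusted p = 0.415) in the siRNA contrast and 0.92 ± 0.57 (-0.34 to 2.17, adjusted p = 0.218) in the mASO contrast. Without siSTAT3 1 the value was -0.11, and without mASO STAT3 2 it was -8.87e-05. The intervals of Egfr hold higher as well as lower levels. Its spread within groups, an SD of 0.783 on the log2 scale, was wider than that of 90.7% of tested genes, and that of Met, 0.159, was wider than only 17.3%.

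Erbb3, a kinase-poor partner of EGFR and ERBB2, was at 53.8, 127 and 96.97 CPM in siSTAT3 livers and 60.5, 70.3 and 44.8 CPM in siCntrl livers. It was at 62.6, 54.4 and 73.7 CPM in mASO STAT3 livers, against 58.5, 70.2 and 51.5 CPM in mASO Scrbl livers. Within siSTAT3 the first library lay among the siCntrl values and the other 2 above them, and in the mASO contrast the groups overlapped. The siRNA contrast did not pass (log2 fold change 0.66 ± 0.26, 0.095 to 1.23, adjusted p = 0.0547). It passed by DESeq2 (adjusted p = 0.0319), without siCntrl 2 (0.0473) and without siSTAT3 1 (0.00317). In the other 11 of 14 alternatives Erbb3 did not pass in the siRNA contrast. Over all 14 its log2 fold change ranged from 0.15 to 0.94, with adjusted p up to 0.651. With library totals its p was not under 0.05 even unadjusted, so the near call in the siRNA contrast depends on the scaling. The mASO contrast gave 0.082 ± 0.26 (-0.48 to 0.65, adjusted p = 0.824), and -0.51 with library totals.

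Erbb2, which has no known ligand and acts as a partner of the other receptors, was at 2.12, 1.93 and 1.01 CPM in siSTAT3 livers and 1.89, 2.66 and 2.64 CPM in siCntrl livers. The level was 1.600, 2.26 and 1.93 CPM in mASO STAT3 livers, against 1.797, 1.28 and 2.38 CPM in mASO Scrbl livers. Its groups overlapped in both contrasts. Erbb2 did not pass in the siRNA contrast (-0.50 ± 0.33, -1.22 to 0.22, adjusted p = 0.2397) or in the mASO contrast (0.088 ± 0.33, -0.63 to 0.80, adjusted p = 0.852). With library totals it was lower by test in the siRNA contrast, at -0.9996 (adjusted p = 0.0274), and at -0.48 in the mASO contrast.

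**Figure D3:**
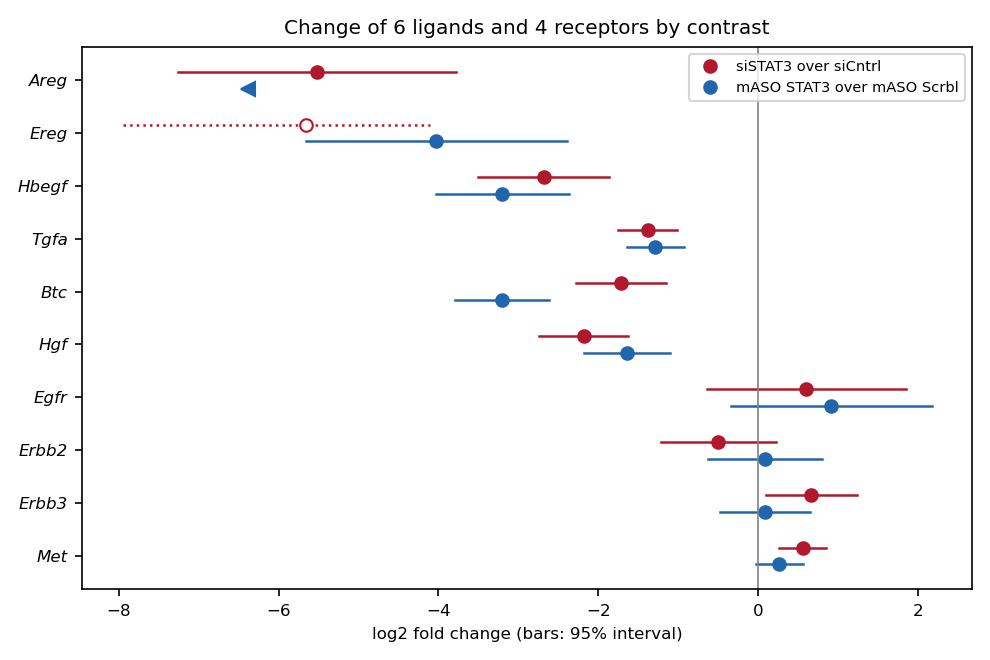
Log2 fold change (horizontal axis) of the 6 ligand and 4 receptor genes in the siRNA contrast (siSTAT3 over siCntrl, red) and the mASO contrast (mASO STAT3 over mASO Scrbl, blue), with 95% intervals. The open circle with a dotted line is Ereg in the siRNA contrast, drawn as the pooled level ratio with its exact counting interval, and the triangle is the bound for Areg in the mASO contrast, which had no count. The ligand genes lie left of 0 with intervals clear of it, and of the receptor genes Met and Erbb3 in the siRNA contrast have intervals right of 0.

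Levels of different genes can be compared only per length, here as CPM per kilobase of merged GENCODE M21 exons, since no source used here gives the authors' annotation. On this scale every library of a group had Egfr, Erbb3 and Met above the 6 ligand genes in any library of that group. The gap was narrow in mASO Scrbl livers, where Egfr was at 4.901 to 5.77 and Tgfa at 4.03 to 4.73. In siSTAT3 livers Erbb3 averaged 15.4, Egfr 12.8 and Met 12.7, and in siCntrl livers 9.73, 8.43 and 8.64. The 3 genes averaged 10.6, 10.3 and 10.8 in mASO STAT3 livers, and in mASO Scrbl livers 9.98, 5.47 and 9.05. Their ranges over libraries overlapped within each group except mASO Scrbl, where Egfr (4.901 to 5.77) lay below Met (8.88 to 9.16) and Erbb3 (8.56 to 11.7).

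Tgfa came next in every group, at 1.59 CPM per kilobase in siSTAT3, 4.15 in siCntrl, 1.84 in mASO STAT3 and 4.49 in mASO Scrbl. Hbegf averaged 0.221 in siSTAT3 and 1.42 in siCntrl, and 0.192 in mASO STAT3 and 1.78 in mASO Scrbl. For Hgf the mean was 0.297 in siSTAT3 and 1.35 in siCntrl, and 0.459 in mASO STAT3 and 1.43 in mASO Scrbl. In the siCntrl livers Hbegf (0.838 to 1.91), Hgf (1.21 to 1.62) and Areg (0.899 to 1.88) overlapped, whereas Btc (0.671 to 0.8197) lay below all 3 of them. Erbb2 (0.363 to 0.5099) and Ereg (0.229 to 0.432) came last there and overlapped each other. In mASO STAT3 livers Hgf (0.417 to 0.497) overlapped Erbb2 (0.307 to 0.434) and lay above Hbegf (0.168 to 0.208) and Btc (0.109 to 0.151), and Ereg was at 0.0177 with Areg at 0.

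The size of the change was compared between the contrasts as the mASO contrast minus the siRNA contrast. None of the 10 genes passed, where 0.00636% of all genes did. At an unadjusted p under 0.05 the edgeR test gave 2, Areg and Btc, DESeq2 passed 1, Btc, at an adjusted p of 0.0376, and limma voom passed 0. For Btc the difference was -1.49 ± 0.37 on the log2 scale (95% interval -2.27 to -0.70, edgeR adjusted p = 0.5297). For Hgf it was 0.54 ± 0.35 (-0.22 to 1.30), for Hbegf -0.52 ± 0.52 (-1.63 to 0.60) and for Tgfa 0.099 ± 0.23 (-0.41 to 0.60). Met differed by -0.30 ± 0.19 (-0.71 to 0.12), Erbb3 by -0.58 ± 0.37 (-1.38 to 0.22), Erbb2 by 0.59 ± 0.47 (-0.42 to 1.60) and Egfr by 0.32 ± 0.80 (-1.44 to 2.07). For Ereg it was 1.58 ± 1.24 (-1.08 to 4.23), and none is given for Areg, which has no count in mASO STAT3. All of these intervals except that of Btc include 0, and each reaches a size of 0.60 or more in one direction, so they do not show that the loads act alike.

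Between the control groups, mASO Scrbl over siCntrl, again none of the 10 genes passed, where 0.0127% of all genes did. DESeq2 and limma voom also passed 0, and at an unadjusted p under 0.05 edgeR gave 1, Btc. All mASO Scrbl livers were above all siCntrl livers in Btc (log2 fold change 0.67 ± 0.24, adjusted p = 0.569), as were 6.75% of all tested genes. All mASO Scrbl livers were below all siCntrl livers in Egfr (-0.62 ± 0.56, adjusted p = 0.771), as were 5.67% of all genes. Values for the other 8 genes lay between -0.40 for Erbb2 and 0.32 for Hbegf, and their groups overlapped.

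The groups given STAT3 loads, mASO STAT3 over siSTAT3, gave the same count of 0, where 0% of all genes passed. DESeq2 and limma voom passed 0 of the 10 as well. The unadjusted edgeR p was under 0.05 for 3, namely Areg, Btc and Hgf. Btc was lower in every mASO STAT3 liver than in every siSTAT3 liver (-0.82 ± 0.27, adjusted p = 0.624), as 5.14% of all genes were. Hgf was higher in every mASO STAT3 liver (0.63 ± 0.26, adjusted p = 0.761), as 6.04% of all genes were. These comparisons use the same libraries as the contrasts and are no independent support for them.

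Promoter windows are shown for 4 ligand genes that fell in both contrasts and for Met, to set the start regions of genes that fell beside that of a gene that rose in the siRNA contrast. RefSeq windows of 250 bases before and 50 bases after the start (GRCm38.p6) were at hand for 7 of the 10 genes, in 8 windows because Hgf has 2. Capitals mark matches to any of 4 motifs searched on both strands: TTCNNNGAA for STAT factors, TGANTCA for AP-1, TGACGTCA for CREB and ATF factors, and GGAATG for TEAD factors. The stretches are Areg at chr5:91139349-91139648 on the plus strand, Btc at chr5:91402945-91403244 on the minus strand, Tgfa at chr6:86194972-86195271 on the plus strand, Hgf at chr5:16553245-16553544 on the plus strand and Met at chr6:17463707-17464006 on the plus strand.
Areg: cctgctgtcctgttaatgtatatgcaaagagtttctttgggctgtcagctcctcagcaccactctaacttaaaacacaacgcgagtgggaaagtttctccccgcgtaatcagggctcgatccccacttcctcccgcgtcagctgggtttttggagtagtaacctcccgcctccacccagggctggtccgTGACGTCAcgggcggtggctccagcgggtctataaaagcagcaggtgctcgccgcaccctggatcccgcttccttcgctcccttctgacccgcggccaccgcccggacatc
Btc: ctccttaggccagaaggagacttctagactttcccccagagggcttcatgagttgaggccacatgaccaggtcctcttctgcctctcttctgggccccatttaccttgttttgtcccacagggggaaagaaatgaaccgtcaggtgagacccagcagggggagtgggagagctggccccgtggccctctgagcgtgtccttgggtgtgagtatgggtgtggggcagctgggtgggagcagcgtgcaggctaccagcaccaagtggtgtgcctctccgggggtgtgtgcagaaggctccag
Tgfa: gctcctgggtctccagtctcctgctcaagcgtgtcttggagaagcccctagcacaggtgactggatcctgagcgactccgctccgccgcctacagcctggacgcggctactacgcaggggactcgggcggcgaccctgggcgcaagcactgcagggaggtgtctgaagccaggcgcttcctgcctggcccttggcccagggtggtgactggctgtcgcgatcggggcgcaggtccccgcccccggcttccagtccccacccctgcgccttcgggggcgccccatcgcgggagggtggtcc
Hgf: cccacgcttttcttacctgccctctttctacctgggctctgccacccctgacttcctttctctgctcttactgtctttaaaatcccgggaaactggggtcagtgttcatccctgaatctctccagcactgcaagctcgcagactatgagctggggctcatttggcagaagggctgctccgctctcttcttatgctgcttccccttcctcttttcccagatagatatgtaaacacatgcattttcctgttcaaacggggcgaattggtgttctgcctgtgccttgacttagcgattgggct
Met: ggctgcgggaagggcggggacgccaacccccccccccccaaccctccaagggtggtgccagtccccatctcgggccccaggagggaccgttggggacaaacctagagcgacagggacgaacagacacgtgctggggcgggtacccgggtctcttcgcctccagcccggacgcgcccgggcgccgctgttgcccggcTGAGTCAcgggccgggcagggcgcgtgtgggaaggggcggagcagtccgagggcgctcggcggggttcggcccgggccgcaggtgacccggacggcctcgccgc

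Areg held 1 match, TGACGTCA, starting 61 bases before the start site, a motif present in 1.79% of all 32851 RefSeq windows. Met held 1 match, TGAGTCA, starting 54 bases before the start site, where 7.81% of windows hold the AP-1 motif. The Btc, Tgfa and Hgf windows held no match to the 4 motifs. Erbb2 had GGAATG starting 88 bases before its start, as 14.7% of windows have anywhere. The STAT motif TTCNNNGAA was in none of the 8 windows and in 8.30% of all windows. GC content was 59.3% in Areg, 60.3% in Btc, 70.7% in Tgfa, 51.3% in Hgf and 75.7% in Met. The matches describe letters in these windows and were not tested for binding.

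Among the other ERBB genes, Erbb4 rose and Nrg1 fell in both contrasts. Erbb4, a receptor of neuregulins that also binds Hbegf, Ereg and Btc, had 3.68, 2.73 and 3.44 CPM in siSTAT3 livers, against 0.1599, 0.302 and 0.187 CPM in siCntrl livers. It had 2.04, 1.94 and 2.44 CPM in mASO STAT3 livers, against 0.1699, 0.206 and 0.371 CPM in mASO Scrbl livers. No library overlapped in either contrast. Erbb4 gave a log2 fold change of 3.91 ± 0.39 (adjusted p = 4.34e-06) and 3.09 ± 0.38 (adjusted p = 2.38e-05), yet on the scale per kilobase it stayed well under Erbb3, at 0.266 in siSTAT3 and 0.173 in mASO STAT3, against 0.0175 in siCntrl and 0.0202 in mASO Scrbl.

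Neuregulin 1 (Nrg1), a ligand of ERBB3 and ERBB4, averaged 1.16 ± 0.356 CPM in siSTAT3 livers, against 5.14 ± 1.02 CPM in siCntrl livers (SD, n = 3 each), a log2 fold change of -2.16 ± 0.30 (edgeR adjusted p = 6.93e-05). In the mASO contrast it averaged 0.876 ± 0.0807 CPM in mASO STAT3 livers, against 10.6 ± 3.78 CPM in mASO Scrbl livers, a log2 fold change of -3.59 ± 0.32 (adjusted p = 1.33e-06 by edgeR). Nrg4, a neuregulin that acts through ERBB4, was the most abundant ligand gene per length among those measured, at 8.87 CPM per kilobase in siSTAT3 and 6.58 in siCntrl, and at 6.37 in mASO STAT3 and 6.300 in mASO Scrbl. Nrg4 did not pass in the siRNA contrast (0.43 ± 0.22, adjusted p = 0.131) or the mASO contrast (0.015 ± 0.22, adjusted p = 0.963). Egf itself was near the bottom of the scale, at 0.0483, 0.0397, 0.0338 and 0.0372 CPM per kilobase in siSTAT3, siCntrl, mASO STAT3 and mASO Scrbl, and did not pass (0.27 ± 0.47, adjusted p = 0.662, and -0.13 ± 0.47, adjusted p = 0.846). Of 4 tested genes of this list 1 rose and 1 fell in each contrast. Over all tested genes 22.4% rose and 23.4% fell in the siRNA contrast, and 21.3% and 22.5% in the mASO contrast. The counts are near those shares and are no result about the list. The median log2 fold change of the 4 genes was 0.35 in the siRNA contrast and -0.057 in the mASO contrast. Nrg2 was too low to test, and Nrg3 was not analysed here.

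Genes of the proteins that release the ligands fell as well. All 6 tested genes of ligand shedding fell in the siRNA contrast and 5 in the mASO contrast, where 23.4% and 22.5% of all tested genes were lower. The median log2 fold change of these 6 genes was -0.76 and -0.81. Adam17, the main sheddase of Areg, Ereg, Hbegf and Tgfa, gave -0.57 ± 0.14 (adjusted p = 0.00508) and -0.47 ± 0.14 (adjusted p = 0.0169), the call in the mASO contrast not holding without mASO STAT3 1 (0.0619) or mASO STAT3 2 (0.0511). Adam10, the sheddase of Btc, gave -0.79 ± 0.15 (adjusted p = 0.000651) and -0.71 ± 0.15 (adjusted p = 0.00145). Adam12, which can release Hbegf, was at 0.4705 ± 0.0339 CPM in siSTAT3 livers, against 4.86 ± 0.479 CPM in siCntrl livers (SD), a log2 fold change of -3.37 ± 0.30 (adjusted p = 1.38e-06). In the mASO contrast Adam12 was at 0.692 ± 0.1297 CPM in mASO STAT3 livers, against 4.08 ± 1.17 CPM in mASO Scrbl livers (-2.55 ± 0.28, adjusted p = 9.02e-06). Adam9 gave -0.73 ± 0.25 (adjusted p = 0.0294) and -0.92 ± 0.25 (adjusted p = 0.00964). In the siRNA contrast the Adam9 call was lost without siCntrl 1 (0.116), without siSTAT3 2 (-0.44, 0.0625) and with the 6 compared libraries alone (0.0650). Rhbdf1 and Rhbdf2 encode the iRhoms that carry ADAM17 to the cell surface. Rhbdf1 gave -0.90 ± 0.13 (adjusted p = 8.11e-05) and -1.35 ± 0.13 (adjusted p = 2.72e-06). Rhbdf2 gave -0.50 ± 0.15 (adjusted p = 0.0143), a call lost without siCntrl 2 (0.0738) or siSTAT3 3 (0.0529), and -0.20 ± 0.15 in the mASO contrast (adjusted p = 0.303).

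HGF needs cutting to become active, and among the genes of its activators Hgfac, Hpn and F12 rose while Plau fell. Of 10 genes of HGF activation and its inhibitors, 5 rose and 3 fell in each contrast, with a median of 0.0056 and 0.036. Over all tested genes 22.4% rose and 23.4% fell in the siRNA contrast, and 21.3% and 22.5% in the mASO contrast, so the 3 lower genes are close to that share. Hgfac, the HGF activator protease made by hepatocytes, was at 457 ± 72.6 CPM in siSTAT3 livers, against 129.8 ± 14.2 CPM in siCntrl livers (1.82 ± 0.15, adjusted p = 6.57e-07). It was at 389 ± 38.7 CPM in mASO STAT3 livers, against 114 ± 4.12 CPM in mASO Scrbl livers (1.77 ± 0.15, adjusted p = 8.65e-07). Hpn, the membrane protease hepsin, rose by 1.32 (adjusted p = 1.26e-05) and 1.36 (adjusted p = 9.39e-06) on the log2 scale. F12, coagulation factor XII, rose by 1.204 and 1.18 (adjusted p = 9.92e-06 and 1.16e-05). Plau, urokinase, was at 1.67 ± 0.315 CPM in siSTAT3 livers, against 18.7 ± 4.75 CPM in siCntrl livers (-3.48 ± 0.29, adjusted p = 7.85e-07), and at 1.89 ± 0.555 CPM in mASO STAT3 livers, against 15.6 ± 3.77 CPM in mASO Scrbl livers (-3.05 ± 0.28, adjusted p = 2.02e-06). The other genes that fell were Plaur and Plat, and the others that rose were Klkb1 and Spint2. These 4 are named after their values were seen. Spint2 belongs to the inhibitors of the list, so the 5 genes that rose are not activators alone.

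Mst1, the hepatocyte gene of macrophage-stimulating protein, an HGF relative, rose to 219.8 ± 35.5 CPM in siSTAT3 livers, against 85.9 ± 9.19 CPM in siCntrl livers (1.36 ± 0.14, adjusted p = 4.54e-06). It rose to 218 ± 10.5 CPM in mASO STAT3 livers, against 79.8 ± 4.598 CPM in mASO Scrbl livers (1.45 ± 0.14, adjusted p = 2.55e-06). Its receptor gene Mst1r, a MET relative, did not pass (-0.67 ± 0.57, adjusted p = 0.363, and 0.058 ± 0.57, adjusted p = 0.945).

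**Figure D4:**
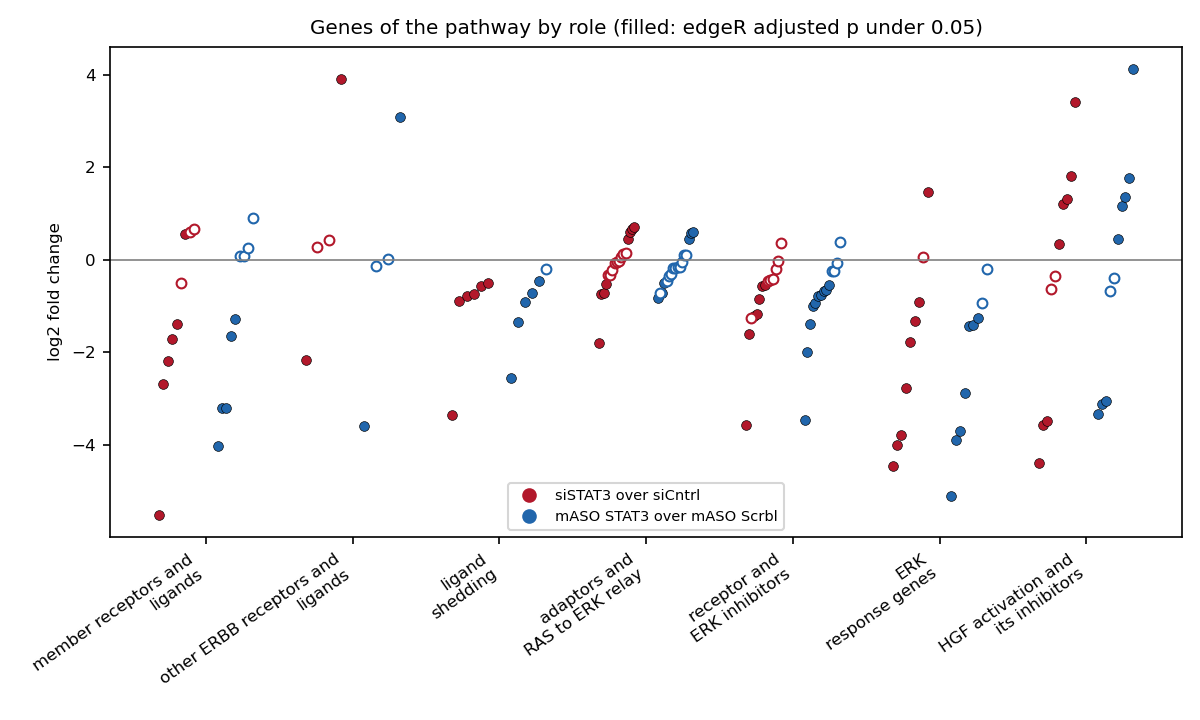
Log2 fold change (vertical axis) of the receptor and ligand genes and of 6 related gene lists by role, for siSTAT3 over siCntrl (red, left in each list) and mASO STAT3 over mASO Scrbl (blue, right). Each point is a gene, filled where its edgeR adjusted p was under 0.05, and points are sorted by value. Areg in the mASO contrast and Ereg in the siRNA contrast, with 0 and 3 counts, are not drawn, and the shedding, inhibitor and ERK response lists lie mostly below 0.

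Inside the cell, response genes of ERK signalling mostly fell, and so did part of the inhibitor genes. Of 14 genes of receptor and ERK inhibitors, 7 fell in the siRNA contrast and 10 in the mASO contrast (11 and 13 with library totals), where 23.4% and 22.5% of all tested genes were lower. Their median was -0.56 and -0.71. Dusp5, an ERK phosphatase gene that ERK itself induces, was at 1.42 ± 0.0915 CPM in siSTAT3 livers, against 16.9 ± 0.731 CPM in siCntrl livers (-3.58 ± 0.19, adjusted p = 2.19e-08). It was at 1.58 ± 0.326 CPM in mASO STAT3 livers, against 17.3 ± 2.16 CPM in mASO Scrbl livers (-3.46 ± 0.19, adjusted p = 2.56e-08). Dusp6, a second ERK phosphatase gene, gave -1.18 and -0.67 (adjusted p = 4.37e-05 and 0.00311). Spry1, a feedback inhibitor of receptor kinases, gave -1.22 and -0.76 (adjusted p = 7.74e-05 and 0.00264). Spry2, its relative, gave -1.61 (adjusted p = 0.00117) and -1.01 (adjusted p = 0.0188), the call in the mASO contrast being lost without mASO STAT3 1 (0.0585), mASO STAT3 3 (0.0821) or mASO Scrbl 3 (0.0560).

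Of 9 ERK response genes 7 fell in each contrast, beside 23.4% of all tested genes in the siRNA contrast and 22.5% in the mASO contrast. Their median was -1.78 and -1.43, and Phlda1 rose in the siRNA contrast. Egr1, an immediate early transcription factor, was at 5.18 ± 2.76 CPM in siSTAT3 livers, against 83.2 ± 21.03 CPM in siCntrl livers (-4.01 ± 0.35, adjusted p = 2.70e-06). In the mASO contrast Egr1 was at 4.095 ± 0.302 CPM in mASO STAT3 livers, against 53.7 ± 8.79 CPM in mASO Scrbl livers (-3.71 ± 0.35, adjusted p = 4.32e-06). Fosl1, a subunit of AP-1, gave -4.46 ± 0.62 and -5.11 ± 0.63 (adjusted p = 6.14e-05 and 2.48e-05). Etv5, an ETS factor induced by receptor kinases, gave -1.32 and -1.41 (adjusted p = 6.95e-05 and 3.91e-05). Phlda1 was at 55.5 ± 15.8 CPM in siSTAT3 livers, against 19.9 ± 0.331 CPM in siCntrl livers (1.48 ± 0.23, adjusted p = 0.000201). It did not pass in the mASO contrast (-0.20 ± 0.23, adjusted p = 0.503), where with library totals it passed at -0.77.

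Of 17 adaptor and relay genes 4 rose and 4 fell in the siRNA contrast, and 3 rose and 3 fell in the mASO contrast, with a median of -0.051 and -0.17. These counts lie near or below the shares over all tested genes, 22.4% higher and 23.4% lower in the siRNA contrast and 21.3% and 22.5% in the mASO contrast, and are no result about these genes. With library totals 0 were higher and 11 lower in the siRNA contrast, and 0 and 14 in the mASO contrast, and without siCntrl 2 the higher count in the siRNA contrast was 2. Among the genes that rose were Araf and Map2k2 in both contrasts and Gab1 in the siRNA contrast, named after their values were seen. Nras, a RAS protein gene, gave -0.74 and -0.71 (adjusted p = 0.000982 and 0.001396). Ptpn11, the phosphatase SHP2, gave -0.71 and -0.82 (adjusted p = 0.00563 and 0.00227). Gab2, a docking adaptor, gave -1.80 (adjusted p = 0.00111) and -0.71 (adjusted p = 0.114), passing in the mASO contrast with library totals (-1.27) and without mASO STAT3 2 (-1.06).

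Markers of several liver cell types also differed between the groups. In bulk tissue, fewer cells of a type and less RNA per cell cannot be told apart. Over all tested genes 22.4% were higher and 23.4% lower in the siRNA contrast, and 21.3% and 22.5% in the mASO contrast. Beside the fall of Hgf, 6 of 8 stellate cell and myofibroblast markers fell in each contrast. Their summed level was 182 to 220.0 CPM over siSTAT3 libraries, against 935 to 1211 CPM over siCntrl libraries, and 211 to 267 CPM over mASO STAT3 libraries, against 666 to 1494 CPM over mASO Scrbl libraries, none of the 8 being at 0. The other 2 markers did not share that direction. Reln rose to 71.3 ± 1.87 CPM in siSTAT3 livers, against 45.6 ± 6.28 CPM in siCntrl livers (0.64 ± 0.20, adjusted p = 0.0169), a call lost without siCntrl 3 and with library totals. It rose to 85.3 ± 22.8 CPM in mASO STAT3 livers, against 39.8 ± 10.5 CPM in mASO Scrbl livers (1.10 ± 0.20, adjusted p = 0.000591). Lrat gave 0.40 ± 0.23 in the siRNA contrast (adjusted p = 0.162) and rose in the mASO contrast, at 19.8 ± 4.25 CPM in mASO STAT3 livers, against 8.94 ± 0.733 CPM in mASO Scrbl livers (1.15 ± 0.23, adjusted p = 0.00109). With library totals 1 of these 2 was higher in the mASO contrast. Of 5 tested cholangiocyte markers 4 fell in the siRNA contrast and 3 in the mASO contrast, with sums of 81.7 to 132 CPM over siSTAT3 libraries, against 540 to 1376 CPM over siCntrl, and 67.8 to 93.4 CPM over mASO STAT3 libraries, against 581 to 1322 CPM over mASO Scrbl. These sums were mostly Spp1. Its mean was 91.1 ± 26.9 CPM over siSTAT3 livers, against 969 ± 429.6 CPM over siCntrl livers, while mASO STAT3 livers averaged 71.3 ± 15.6 CPM, against 960.3 ± 370.3 CPM over mASO Scrbl livers. The keratin gene Krt19 passed in neither contrast (-1.11 ± 0.44, adjusted p = 0.0541, and -0.13 ± 0.43, adjusted p = 0.834). Beside Hgfac in both contrasts and Met in the siRNA contrast, 5 of 8 hepatocyte markers rose in the siRNA contrast and 6 in the mASO contrast (2 and 3 with library totals). Apob and Hnf4a passed in neither contrast. The sums of the 8 markers were 124649 to 137834 CPM over siSTAT3 libraries, against 50180 to 89171 CPM over siCntrl, and 110453 to 149438 CPM over mASO STAT3 libraries, against 57132 to 86400 CPM over mASO Scrbl. These sums were mostly Alb, which averaged 95245 CPM over siSTAT3 livers, against 51591 CPM over siCntrl livers. Over mASO STAT3 livers Alb averaged 101362 CPM, against 56795 CPM over mASO Scrbl livers.

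Areg and Hbegf are also made by immune cells. The counts below stand beside 22.4% higher and 23.4% lower genes overall in the siRNA contrast. In the mASO contrast those shares were 21.3% and 22.5%. In lists this short a count of 1 lies near them and is no result about the list. Of 6 neutrophil markers 4 fell in the siRNA contrast and 5 in the mASO contrast, with sums of 14.0 to 44.1 CPM over siSTAT3 libraries, against 48.6 to 101 CPM over siCntrl, and 19.4 to 19.5 CPM over mASO STAT3 libraries, against 35.01 to 79.1 CPM over mASO Scrbl. The mASO count was 2 without mASO STAT3 1, mASO STAT3 3 or mASO Scrbl 1. Of 6 monocyte and macrophage markers 4 fell in the siRNA contrast, 2 without siCntrl 2, siSTAT3 1 or siSTAT3 3, and 1 fell in the mASO contrast. Their sums were 186 to 222 CPM over siSTAT3 libraries, against 212 to 525 CPM over siCntrl, and 175 to 254 CPM over mASO STAT3 libraries, against 156 to 305 CPM over mASO Scrbl. Of 3 tested innate lymphoid and mast cell markers 2 fell in the siRNA contrast and 1 in the mASO contrast. Over the 6 of that list the sums were 2.19 to 2.70 CPM over siSTAT3 libraries, against 5.66 to 8.89 CPM over siCntrl, and 3.56 to 3.84 CPM over mASO STAT3 libraries, against 5.68 to 8.03 CPM over mASO Scrbl, with Mcpt4 at 0 in mASO STAT3. Kupffer cell sums overlapped, at 255 to 389 CPM over siSTAT3 libraries, against 166 to 413 CPM over siCntrl, and 306 to 347 CPM over mASO STAT3 libraries, against 167 to 392 CPM over mASO Scrbl. Within them Marco fell in both contrasts (-2.93 ± 0.54, adjusted p = 0.00116, and -2.39 ± 0.52, adjusted p = 0.00365). Of the 5 tested Kupffer cell markers 1, Timd4, rose in the siRNA contrast and 2, Timd4 and Clec4f, in the mASO contrast. Those higher counts were 0 to 2 when 1 library was left out and 0 with library totals: they were 0 without siCntrl 1, siCntrl 3 or siSTAT3 3 and 2 without siCntrl 2 in the siRNA contrast, and in the mASO contrast 0 without mASO Scrbl 2 or 3 and 1 without any one mASO STAT3 library. Apart from Mcpt4, no marker of these lists was at 0 in a whole group. The part of these cell types in the levels of the ligand and receptor genes was not tested.

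Genes with the most similar pattern over the 12 libraries were sought for Egfr, Met, Areg and Hgf among 12413 genes with a mean of at least 1 CPM, by Pearson's r of log2 CPM. For Egfr they were Surf6 (0.926), Pwp2 (0.864) and Ticam1 (0.849). For Met they were Mboat7 (0.955), Fam120a (0.954) and Lrp4 (0.953). For Areg they were Ammecr1 (0.992) and Zdhhc2 (0.990), and for Hgf Prkx (0.995), Gm5549 (0.987) and Jam2 (0.986). The values for Met, Areg and Hgf share the split between libraries labelled STAT3 and control libraries, and no test is attached to them.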

How the data were processed

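For 12 liver libraries the authors deposited a table of raw whole-number counts by gene symbol, which was used unchanged. The authors' other deposited table gives a normalized signal. Its values equal the counts divided by 1 factor per library, and it served for that check alone. RNA was extracted with TRIzol and sequenced with a stranded Illumina mRNA kit, per the labels' protocols. The submitters' processing notes list TopHat and Cufflinks, with neither versions nor steps. Build, annotation, counting tool and use of strand were not given in the sources used here. Reads of antisense or overlapping genes could then not be told apart.

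All 12 libraries entered 1 edgeR fit (4.0.16, R 4.3.3) with 1 coefficient for each group and TMM scaling. Low genes were dropped with filterByExpr (at least 10 counts, total of at least 15), leaving 15720 and removing 9820. The F test, robust and quasi-likelihood, had 8 residual degrees of freedom per gene and a common biological coefficient of variation of 0.247. It was run on simulated counts, which changed far fewer genes than passed here, with as many raised as lowered. That run could not check the test or the scaling in the setting of these data. SEs were obtained as the absolute log2 fold change over the square root of F. Intervals are 95%, and counting intervals and the floor of 3 counts over a group cover counting error only. Pattern likeness used log2 CPM with a prior count of 2. Alternatives were DESeq2 size factors, library totals, DESeq2 (1.42.0), limma voom (3.58.1), no filter, 1 CPM in 3 libraries, the compared libraries alone, a replicate block and leaving out each library.

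The 10 genes and the gene lists were chosen with earlier results of these data known. Named genes outside the 10 are all tested genes of lists of 7 or fewer, and otherwise the 4 with the smallest p in either contrast. Single cell type markers are named after their values were seen. A few genes that the rules name are not reported here. T and NK cell, B cell, sinusoidal endothelial and mesothelial markers were also measured and are given with the closing values. No libraries of a group were duplicates: chi-square per degree of freedom between any pair of a group was far above 1. Same-numbered libraries of different groups had residual correlations of -0.238 to 0.187. Differently numbered libraries were not compared, so these values do not settle whether the numbers pair the libraries. The main fit took no pairing.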

Additional observations from a re-analysis of the deposited data

How the results depend on the processing

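The 6 ligand genes kept their direction and call in both contrasts under all alternatives, and no alternative changed how many of the 10 genes were lower in the mASO contrast. In the siRNA contrast the number of the 10 genes called higher was 0 with library totals and 2 with the DESeq2 test, and 1 to 2 over the fits without 1 library, where the added gene was Erbb3. For the difference of the contrasts DESeq2 called 1 gene lower, Btc. With the replicate number as a block the counts were 1 higher and 6 lower in the siRNA contrast and 0 and 6 in the mASO contrast, so the block changed no count of the 10 genes. It was a check only, since whether the numbers pair the libraries is not known.

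Library totals turned the direction of Erbb2 (-0.48), Erbb3 (-0.51), Met (-0.33), Nrg4 (-0.58), Mst1r (-0.48) and Stat3 (-0.53) in the mASO contrast, of Egf (-0.24) and Nrg4 (-0.080) in the siRNA contrast and of Ereg between the controls (0.020). Nrg4 in the mASO contrast was -0.041 with limma voom and -0.0072 with no filter. Library totals move all genes down by construction, by a median of -0.53 in the siRNA contrast and -0.63 in the mASO contrast. For Nrg4 in the other fits the cause was not tested.

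Leaving out 1 library at a time turned the direction of some values that had not passed. The log2 fold changes in the siRNA contrast then ranged as follows for Egfr (-0.11 to 0.89), Egf (-0.0723 to 0.56) and Stat3 (-0.12 to 0.0823). The log2 fold changes in the mASO contrast then ranged as follows for Egfr (-8.87e-05 to 1.31), Erbb2 (-0.11 to 0.33), Erbb3 (-0.0402 to 0.21), Egf (-0.34 to 0.13), Nrg4 (-0.16 to 0.25), Phlda1 (-0.36 to 0.0588), Mst1r (-0.68 to 0.42) and Stat3 (-0.0420 to 0.15). The log2 fold changes in the difference of the contrasts then ranged as follows for Egfr (-0.60 to 1.02) and Tgfa (-0.0355 to 0.26). The log2 fold changes between the controls then ranged as follows for Erbb3 (-0.14 to 0.19), Areg (-0.13 to 0.55), Ereg (-0.77 to 0.23), Hbegf (-0.0278 to 0.63), Tgfa (-0.0242 to 0.25), Hgf (-0.00424 to 0.24) and Met (-0.0403 to 0.14). The log2 fold changes between the STAT3-loaded groups then ranged as follows for Egfr (-1.22 to 0.40) and Erbb2 (-0.0645 to 0.39).

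Depth limits Areg and Ereg in the STAT3-labelled groups, where 0 to 10 reads per group fix only a bound or a wide interval. Erbb2, Egf, Erbb4 and Btc were also under 10 CPM in every library. Egf had 9 to 39 counts per library and Btc 20 to 533. How far depth limits these genes was not tested. With 3 libraries per group the intervals of Egfr hold changes in either direction.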

Other observations

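Markers of 4 further cell types were measured in the same libraries. Over all tested genes 22.4% were higher and 23.4% lower in the siRNA contrast, and 21.3% and 22.5% in the mASO contrast. In lists this short a count of 1 lies near those shares and is no result about the list. Sinusoidal endothelial sums overlapped, at 92.6 to 149 CPM in siSTAT3 and 121 to 152 CPM in siCntrl, and 92.5 to 161 CPM in mASO STAT3 and 117 to 140 CPM in mASO Scrbl. Of 6 such markers 3 fell in the siRNA contrast, Lyve1 (-1.77 ± 0.47), Pecam1 (-1.17 ± 0.27) and Tek (-1.14 ± 0.30), with edgeR adjusted p of 0.00886, 0.00289 and 0.00702. Of the same 6 markers 2 fell in the mASO contrast, Lyve1 (-1.81 ± 0.47, adjusted p = 0.007804) and Pecam1 (-0.79 ± 0.26, adjusted p = 0.02698), and 1 rose, Clec4g (0.70 ± 0.25, adjusted p = 0.03802). Leaving out 1 library gave 1 to 2 lower and 0 to 2 higher there. The lower count was 1 without mASO STAT3 1, mASO STAT3 3, mASO Scrbl 1 or mASO Scrbl 3. The higher count was 2 without mASO STAT3 3 and 0 without mASO STAT3 1, mASO STAT3 2, mASO Scrbl 1 or mASO Scrbl 2, and 0 with library totals. Mesothelial sums were 2.88 to 25.6 CPM in siSTAT3 and 15.7 to 49.5 CPM in siCntrl, and 7.43 to 23.4 CPM in mASO STAT3 and 12.4 to 22.4 CPM in mASO Scrbl. In the siRNA contrast 2 of 5 mesothelial markers fell, 5 without siSTAT3 1 and 1 without any other library. T and NK cell sums were 1.83 to 3.13 CPM in siSTAT3 and 1.64 to 3.59 CPM in siCntrl, and 3.22 to 3.62 CPM in mASO STAT3 and 1.47 to 2.02 CPM in mASO Scrbl. Of 5 tested T and NK cell markers 1 rose and 1 fell in the siRNA contrast (each 0 to 1 when 1 library was left out) and 2 rose in the mASO contrast, 1 without any 1 library of that contrast. B cell sums were 4.31 to 6.48 CPM in siSTAT3 and 2.35 to 4.65 CPM in siCntrl, and 4.91 to 9.87 CPM in mASO STAT3 and 2.73 to 3.34 CPM in mASO Scrbl. Of 4 B cell markers 2 rose in the mASO contrast, 0 to 2 when 1 library was left out, and 0 without mASO STAT3 1. None of these markers was at 0 in a whole group.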
